A study of Homo sapiens with 8 samples.

Results

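The promoter arrays held 6466 probes at which the signal of the mock pull-down exceeded that of the SMAD3 pull-down in all 4 hybridisations. They are referred to here as mock-enriched probes. They were selected on the measured ratio itself. A probe had to be well above background in both channels on all 4 arrays of its slide, and its log2 ratio (SMAD3 immunoprecipitation, SMAD3 IP, over mock IP), centred on the median of the array, had to lie below -2 in both unstimulated and both TGFβ1-stimulated replicates. Of 474411 probes, 161376 (34.0%) met the signal requirement, and the mock-enriched probes were 4.01% of these. Their low ratio is therefore the selection and not a result, and it was not tested.

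A chromatin immunoprecipitation on an array compares the DNA pulled down by an antibody of interest with DNA from a mock pull-down, so that a probe inside a bound fragment shows a high ratio. SMAD3 is the transcription factor that TGFβ receptors phosphorylate. It enters the nucleus with SMAD4 and binds DNA elements with the core CAGAC, and the lung epithelium is a known site of its action. The mock antibody has no intended target in the cell, so probes with a ratio below that of the array carry relatively more of the DNA that came down without the SMAD3 antibody, or relatively less of the SMAD3 IP. The ratio alone does not separate the 2.

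All arrays came from A549, an established line of human lung alveolar carcinoma cells. One group was unstimulated, and the other received 2 ng/ml TGFβ1. The stimulation time is up to 2 h in the labels and methods and a shorter time in the results of the study. The sample names call the mock antibody anti-FLAG, while the extraction text names a control IgG. Every condition was done in 2 biological replicates, and the probes are divided over 2 slides, so that 8 arrays carried SMAD3 IP in Cy5 and mock IP in Cy3. Dyes were not swapped, so that the dye and the antibody cannot be told apart. On a single array 38.7% to 51.5% of the probes passed this signal requirement in both channels. Over the probes that passed on all 4 arrays the ratio correlated with r of 0.89 to 0.98 between replicates of a condition and 0.29 to 0.34 between the conditions, as a description across probes that share a hybridisation. With 2 arrays per condition on each slide, precision is limited throughout.

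The probe sequences were not used here. For 4 mock-enriched probes that the text returns to, the RefSeq promoter window (250 bases before to 50 after the gene start, GRCh38.p14) is shown, because their annotated distance to the start falls within it. The place of the probe inside the window was not matched by sequence. The capitals mark CAGAC or its reverse complement GTCTG, the core of the SMAD-binding element, and 12274 of the 27305 promoters of the RefSeq table (44.95%) hold at least 1 of the pair. SIRT2 encodes a deacetylase and shares a divergent promoter with NFKBIB, and its probe is annotated 121 bp upstream (chr19:38899569-38899868, minus strand). ZNF575 encodes a zinc finger protein and lies opposite ETHE1, with the probe 68 bp upstream (chr19:43532938-43533237, plus strand). BMPR1B is a type I BMP receptor with the probe 180 bp upstream (chr4:94757705-94758004, plus strand). TGFB3 is a TGFβ ligand with the probe 86 bp upstream (chr14:75982962-75983261, minus strand).
SIRT2: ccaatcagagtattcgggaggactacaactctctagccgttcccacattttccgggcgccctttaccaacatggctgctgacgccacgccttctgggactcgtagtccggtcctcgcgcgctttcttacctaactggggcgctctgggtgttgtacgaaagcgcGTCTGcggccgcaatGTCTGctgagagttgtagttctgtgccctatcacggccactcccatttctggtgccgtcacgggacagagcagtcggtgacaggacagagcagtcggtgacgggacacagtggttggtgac
ZNF575: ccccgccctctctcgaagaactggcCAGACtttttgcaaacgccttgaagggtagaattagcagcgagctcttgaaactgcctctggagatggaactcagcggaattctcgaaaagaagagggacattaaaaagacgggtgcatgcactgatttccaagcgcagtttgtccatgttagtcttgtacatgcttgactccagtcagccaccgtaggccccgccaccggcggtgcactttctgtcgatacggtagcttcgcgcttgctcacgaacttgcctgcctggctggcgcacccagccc
BMPR1B: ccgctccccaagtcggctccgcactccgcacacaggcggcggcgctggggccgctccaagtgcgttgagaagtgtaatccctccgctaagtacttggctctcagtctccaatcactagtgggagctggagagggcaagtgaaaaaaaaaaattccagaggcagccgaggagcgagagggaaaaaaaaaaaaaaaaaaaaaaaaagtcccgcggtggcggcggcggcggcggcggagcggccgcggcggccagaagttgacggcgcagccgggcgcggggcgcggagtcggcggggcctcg
TGFB3: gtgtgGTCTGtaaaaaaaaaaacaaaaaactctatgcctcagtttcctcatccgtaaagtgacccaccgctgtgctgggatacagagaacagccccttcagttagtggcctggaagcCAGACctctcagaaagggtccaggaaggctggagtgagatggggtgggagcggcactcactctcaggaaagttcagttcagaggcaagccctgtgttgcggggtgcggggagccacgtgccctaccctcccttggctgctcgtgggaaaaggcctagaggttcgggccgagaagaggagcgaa

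The window of SIRT2 held GTCTG 2 times, that of ZNF575 held CAGAC 1 time, that of TGFB3 held both words 1 time each, and that of BMPR1B held neither. A match is a description of the letters and not of binding. In all, 333 mock-enriched probes were annotated to this window of a gene. Their genes numbered 312, of which 242 have a sequence in the table. This is less than 80%, so base composition and motif shares of these promoters are not given.

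The mean log2 ratio of the 6466 probes ranged from -7.65 to -2.05, with a median of -3.36, and was below -4 at 1799 and below -6 at 141 probes. The median was -3.11 and -3.06 in the unstimulated replicates 1 and 2 and -3.36 and -3.32 in the TGFβ1-stimulated replicates. The median gap between replicates of a probe was 0.23 without and 0.36 with TGFβ1. The mock signal of these probes had a median between 3.55 and 3.73 (log2 relative to the 75th percentile of the array), while the median over all probes well above background was between 0.71 and 0.96. The SMAD3 signal had a median between 0.54 and 1.05, where all probes well above background had 0.98 to 1.16. These levels follow from the selection and are given as a description. No mock-enriched probe was saturated, and 14 carried an outlier mark on an array.

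The selection rests on the background correction. When the mean signals were corrected with normexp in place of the processed signals, 394 probes met the rule, all among the 6466, and the median ratio of the 6466 was -0.42, -1.66, -1.10 and -1.51 on the 4 arrays. All of the 6466 had a normexp ratio below 0 on all 4 arrays, where the highest values were -0.00405, -0.0808, -0.0144 and -0.0669. The probes were selected as low on these same arrays, so nothing is read from that sign. After loess within each array 2808 probes met the rule, of which 2807 were among the 6466. The 3 probes just inside the limit, annotated to SNCG, hsa-mir-148a and UPK2, had a highest array value of -2.00005, -2.00014 and -2.00027. Just outside, the probe at TTYH3 had -1.9999. Within 0.1 of the limit there were 803 probes inside and 899 outside.

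The mock-enriched state was partly shared between the conditions. Both unstimulated replicates were below -2 at 22356 probes (13.9% of those well above background), and both TGFβ1-stimulated replicates at 26499 (16.4%). The 6466 probes were 28.9% of the first set and 24.4% of the second. Another 701 probes (3.14% of the first set) were below -2 without and above 2 with TGFβ1, and 1019 (3.85% of the second) showed the opposite. The share of measured probes above 2 in a single condition was not counted. These shares are therefore not set against the 28.9% and 24.4%. The 5113 probes above 2 on all 4 arrays, with SMAD3 IP over mock IP, are used below for comparison.

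The lowest mean ratios were found at SLC22A18, BLVRB, SIRT2-NFKBIB, ETHE1-ZNF575, TCEAL8, ATP4A, RPL15, PTBP2 and MAP2K3. At SLC22A18, a transporter gene of an imprinted region, the probe 2201 bp upstream had -6.69 and -6.40 without and -9.32 and -8.18 with TGFβ1. At BLVRB, the gene of biliverdin reductase B, the probe 346 bp downstream of the start had -6.63 and -6.22 without and -9.26 and -8.46 with TGFβ1. Both stimulated replicates lay below both unstimulated ones at each gene, and the difference passed the test described further on at BLVRB (limma adjusted p = 0.0298) but not at SLC22A18 (adjusted p = 0.0647). At the SIRT2-NFKBIB promoter, whose sequence is shown above, the values were -7.33, -7.53, -8.15 and -7.36, and the conditions overlapped. At the ETHE1-ZNF575 promoter, also shown above, they were -6.30 and -7.03 without and -8.80 and -7.68 with TGFβ1. At ATP4A, the gene of the gastric proton pump, TGFβ1-stimulated replicate 1 stood apart with -6.45 against -7.54 to -8.09 on the other arrays, and its mock signal was 3.84 there against 7.30 to 7.97. The remaining 4 were TCEAL8, RPL15 (a ribosomal protein), PTBP2 (a splicing regulator) and MAP2K3 (a kinase upstream of p38), with means between -7.44 and -7.29.

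**Figure D1:**
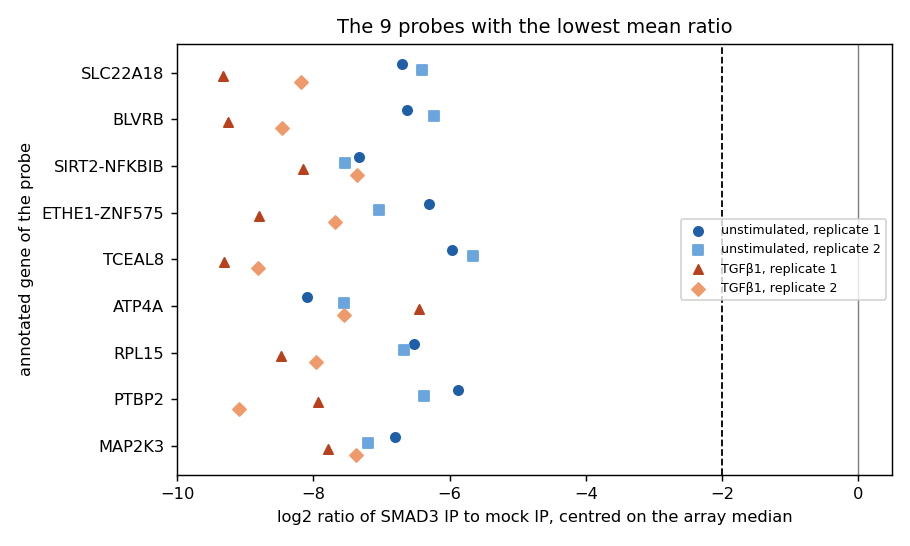
Log2 ratio (SMAD3 IP over mock IP, x axis, centred on the array median) at the 9 mock-enriched probes with the lowest mean (y axis, annotated gene). Each point is 1 array, 2 per condition, and the dashed line marks the limit of -2. All points lie at -5.66 or lower, and the TGFβ1 points lie left of the unstimulated points at 7 of the 9 probes.

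Probes next to a mock-enriched probe had lower ratios than probes farther away, and part of that gap went with signal. The 22170 other probes within 500 bp of one had a median of -0.27 and -0.39 in the unstimulated and -0.33 and -0.41 in the TGFβ1-stimulated replicates, and the median of their 4-array mean was -0.57. By distance, the median of the 4-array mean was -0.79 within 250 bp, -0.42 at 250 to 500 bp, -0.30 at 500 to 750 bp and -0.14 at 2000 to 3000 bp. The 374799 probes farther from any mock-enriched probe had a median of -0.02, but most of these are dim. Among probes well above background that were not selected, the 12533 within 500 bp had a median of -0.79, against -0.37 for the 108455 farther than 3000 bp from any mock-enriched probe. On single arrays the near ones had -0.53, -0.62, -0.69 and -0.73 and the far ones -0.18, -0.29, -0.33 and -0.41. By distance, measured probes around mock-enriched ones had -0.99 within 250 bp, -0.54 at 500 to 750 bp and -0.53 at 2000 to 3000 bp. Around probes with SMAD3 IP over mock IP the median within 250 bp was 0.05, and 0.22 over measured probes. Farther from these, measured probes had -0.62 at 1000 to 1500 bp and -0.79 at 2000 to 3000 bp. Medians as low as -0.79 were therefore not particular to the surroundings of mock-enriched probes. The neighbours were measured on the same arrays and partly carry the same DNA fragments. With the normexp correction the median within 500 bp was -0.02, and among probes well above background it was between -0.03 and 0.02 on the 4 arrays near a mock-enriched probe and between -0.00258 and 0.10 far from one.

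**Figure D2:**
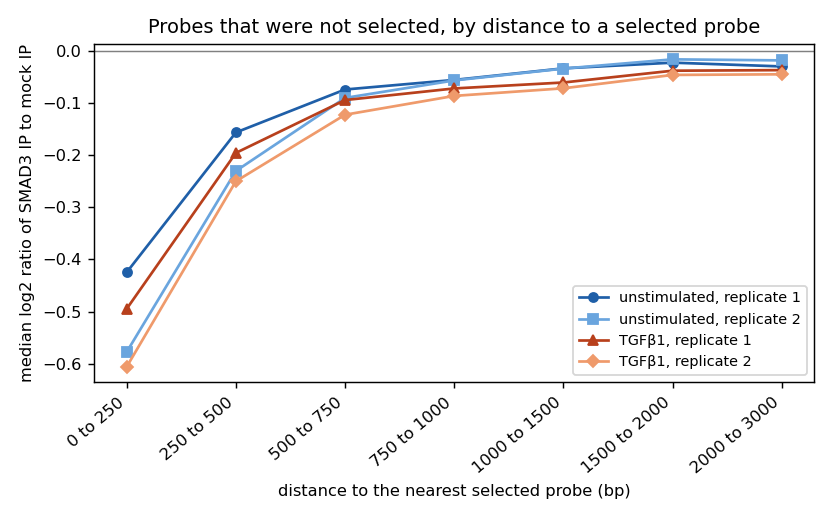
Median log2 ratio (SMAD3 IP over mock IP, y axis) of probes that were not selected, by their distance in bp to the nearest mock-enriched probe (x axis), with 1 line per replicate. All 4 lines start between -0.42 and -0.61 within 250 bp and lie between -0.02 and -0.04 at 2000 to 3000 bp.

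Most mock-enriched probes nevertheless stood alone. When probes at most 500 bp apart were joined, 5304 of 5831 groups held 1 probe, 437 held 2, 73 held 3, 16 held 4 and 1 held 5, and 1162 probes (18.0%) had a mock-enriched neighbour. The group of 5 lay in RNF151, a RING finger gene on chromosome 16, from 66 to 633 bp downstream of the start, and the 5 were all the probes of that stretch. Their mean ratio was between -6.73 and -3.93. In C1R, a protease gene of the complement system on chromosome 12, 4 probes between 2474 and 3163 bp downstream had a mean of -6.27. In C1QL4, also on chromosome 12, the 4 probes of a stretch of 313 bp averaged -5.65. Groups of 4 with all probes of the stretch mock-enriched were also found at HOXD4, a homeobox gene, with an average of -4.35, at PRKCDBP, a caveolae protein gene, across its start with -4.16, at APOB48R, a lipoprotein receptor gene, with -3.98, and at TCAP, a sarcomere protein gene, with -3.68.

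The mock-enriched probes were less frequent near annotated transcription starts. Distance was taken to the first transcript annotated to a probe, so a probe near the start of another gene can count as far. The ETHE1-ZNF575 probe named above counts at 5864 bp upstream, though it is annotated 68 bp upstream of ZNF575. How many probes this concerns was not counted. Within 250 bp of the start so defined 590 of 28058 probes well above background (2.10%) were mock-enriched, and beyond 1000 bp 4154 of 82301 (5.05%). The share beyond 1000 bp was close on both sides, with 5.13% upstream and 4.98% downstream. The probes with SMAD3 IP over mock IP ran the other way, with 6.88% near the start and 1.46% beyond 1000 bp. On slide 1 the mock-enriched share was 1.42% near the start and 3.49% beyond 1000 bp, and on slide 2 it was 2.72% and 6.13%. Signal moved with position too, since 72.3% of all probes were well above background at 0 to 250 bp downstream and 22.0% at 2000 to 3000 bp upstream. Whether this accounts for the pattern was not tested.

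**Figure D3:**
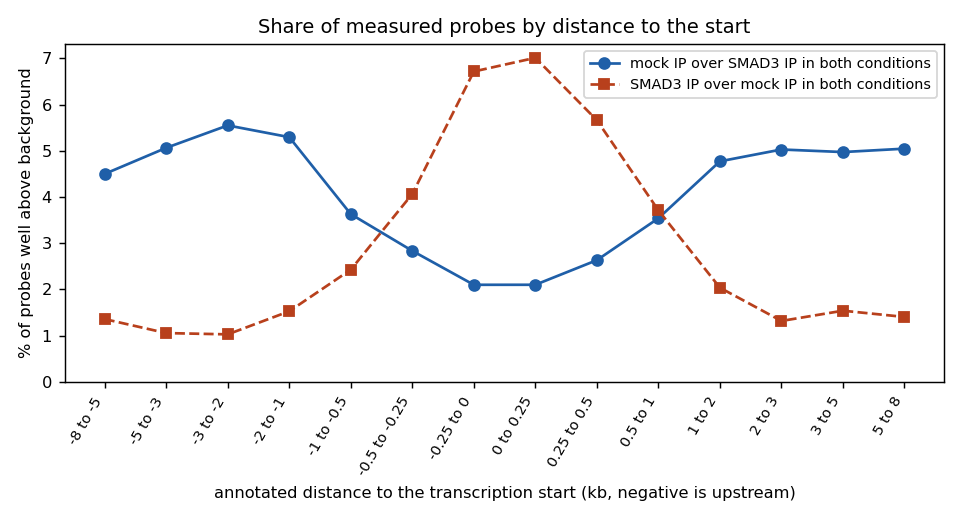
Share (y axis, %) of probes well above background that were mock-enriched (circles) or had SMAD3 IP over mock IP (squares) in both conditions. The x axis is the distance in kb to the start of the first transcript annotated to the probe. The mock-enriched share is lowest at 2.10% on both sides of the start and reaches 5.55% at 2000 to 3000 bp upstream, and the other share peaks at 7.01% just downstream of the start.

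Probe length moved with the selection as well. The share of mock-enriched probes was 3.59% among probes of 44 to 45 nt, 4.41% at 46 to 49 nt, 5.93% at 50 to 53 nt and 7.54% at 54 to 60 nt. The order was the same on slide 1 (2.30% to 6.49%) and on slide 2 (4.56% to 8.43%), and within 250 bp of the start (1.87% to 5.62%), while beyond 1000 bp the shortest classes were alike (4.75% and 4.72%) and the longest had 8.05%. Signal moved with length too, since 89.5% of the shortest and 2.85% of the longest probes were well above background. For SMAD3 IP over mock IP the shares were 3.92% at 44 to 45 nt and 0.744% at 54 to 60 nt. By annotation, 3434 mock-enriched probes lay inside a gene (53.1%, against 55.2% of probes well above background), 2574 in a promoter (39.8% against 38.7%) and 188 in a divergent promoter (2.91% against 3.02%). These shares differed little from those of the measured probes.

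Slide 2 carried 4564 of the mock-enriched probes (4.99% of its measured probes) and slide 1 carried 1902 (2.72%). The slides hold different chromosomes, so slide and chromosome cannot be told apart except on chromosome 10, which is on both. There the share was 2.49% on slide 1 and 4.47% on slide 2, close to the value of each slide. Within slide 1 the share ran from 2.32% on chromosome 4 to 3.21% on chromosome 7. Within slide 2 it ran from 2.73% on chromosome 13 to 5.81% on chromosome 17, 5.97% on chromosome 19 and 21.1% on chromosome Y. Over eighths of the rows or columns of the array surface, the share ran from 1.95% to 3.33% on slide 1 and from 4.53% to 5.49% on slide 2.

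**Figure D4:**
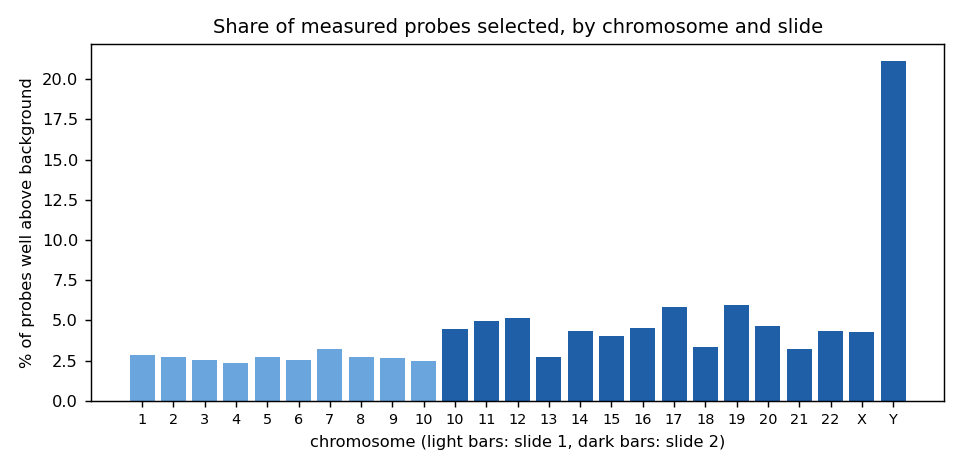
Share (y axis, %) of probes well above background that were mock-enriched, by chromosome (x axis), with light bars for slide 1 and dark bars for slide 2. Chromosome Y stands at 21.1%, and all other bars lie at 5.97% or lower.

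On chromosome Y, 134 of 634 measured probes were mock-enriched, and 71 of them belonged to 3 annotated genes of multicopy families. LOC728137, which its RefSeq accession names TSPY3, of a testis-expressed family, had 34 of 83, RBMY1A1 had 26 of 57 and RBMY1F had 11 of 33. RBMY genes encode RNA-binding proteins of male germ cells. The copies are near-identical and share DNA, so their probes are not independent and cannot be assigned to a single copy. The median ratio over the 71 probes was -4.27 and -4.07 without and -4.58 and -4.60 with TGFβ1. The other probes of the chromosome had 63 mock-enriched of 461 (13.7%). These still include TSPY2, a further gene of the TSPY family, with 6 of 21, so they are not free of multicopy genes. Without chromosome Y the share over all measured probes was 3.94%.

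Outside chromosome Y, mock-enriched probes were spread over many genes. In all, 4399 of 17725 genes with a measured probe had at least 1 (24.8%), 3160 of them exactly 1, 848 had 2 and 391 had 3 or more. After the Y-linked genes, PLEC1 (plectin, a cytoskeletal linker) had 10 of 108 measured probes, with means from -6.25 to -2.22. KCNJ12, a potassium channel gene, had 7 of 62, C17orf68 (CTC1, a telomere maintenance gene) 7 of 15, KLK1 (tissue kallikrein) 7 of 31, C14orf173 (INF2, a formin) 7 of 62 and COX6B2 (a testis form of a respiratory chain subunit) 7 of 42. Among the genes with 6, C1R (6 of 21) had the lowest average, at -5.49. Within the genes named here the share ran from 9.26% in PLEC1 to 46.7% in C17orf68.

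Gene families were compared by name, after their values had been seen, and no test was made. RBMY genes had 37 mock-enriched of 96 measured probes and genes named TSPY had 6 of 60. The latter count leaves out LOC728137 (TSPY3), whose array name differs and which had 34 of 83. Kallikrein-related peptidase genes had 24 mock-enriched of 239 measured probes (10.0%) in 11 genes. Keratin genes, which encode the intermediate filaments of epithelia, had 40 of 445 (8.99%) in 21 genes, and CC chemokine genes had 14 of 183 (7.65%). Olfactory receptor genes had 30 of 532 (5.64%), ribosomal protein genes 30 of 551 (5.44%), microRNA genes 95 of 1851 (5.13%), zinc finger ZNF genes 125 of 2804 (4.46%) and integrin genes 15 of 337 (4.45%). Solute carrier genes with 134 of 3493 (3.84%), HOX genes with 27 of 716 (3.77%), collagen genes with 17 of 538 (3.16%), histone genes with 3 of 109 (2.75%) and CXC chemokine genes with 1 of 76 (1.32%) lay below the 4.01% of all measured probes. Chromosome and slide differ between the families, and their part in these shares was not tested.

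Whether TGFβ1 moved the ratio among these probes was tested with limma on all 474411 probes, with Benjamini-Hochberg adjustment at 0.05. The ratio was called higher after TGFβ1 at 860 mock-enriched probes (13.3%), compared with 10.5% of all probes and 18.9% of those well above background. It was called lower at 1524 (23.6%), compared with 12.4% and 25.4%. The median difference, stimulated minus unstimulated, was -0.27 on the log2 scale, against -0.18 over the measured probes. The selection used these same ratios and removed every probe that crossed the limit in either direction, so nothing is read from these shares about the mock-enriched probes as a set. Without unstimulated replicate 1 the calls fell to 221 higher and 323 lower, and without unstimulated replicate 2 to 251 and 251. Without TGFβ1-stimulated replicate 1 they were 312 and 946, without replicate 2 they were 299 and 1052, and with the normexp correction they were 178 and 273.

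**Figure D5:**
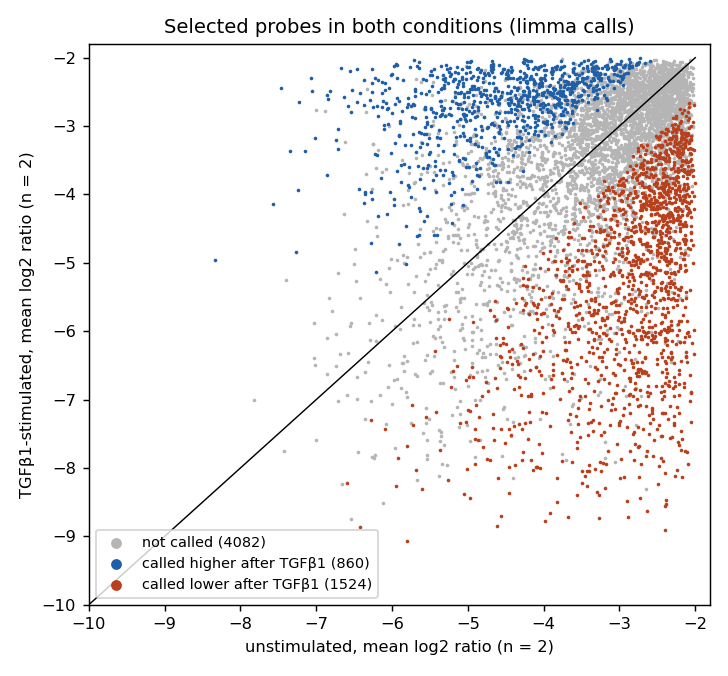
Mean log2 ratio of the 6466 mock-enriched probes without (x axis) and with TGFβ1 (y axis), 2 replicates each. Grey points were not called by limma (4082), blue points were called higher (860) and red points lower (1524) after TGFβ1, and the line marks equal values. The points fill the square below -2 on both axes.

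The largest falls of the ratio were at KRT80, NIT1, LRFN4, ITGB4 and FLJ23356 (POMK). At the KRT80 probe, in a keratin gene 3284 bp downstream of the start, the ratio was -2.67 and -2.14 without and -9.99 and -7.82 with TGFβ1, a difference of -6.50 ± 0.89 (SE, n = 2 per condition, limma adjusted p = 0.0241). At the ITGB4 probe, 1805 bp upstream of the gene of an integrin subunit of hemidesmosomes, it was -2.05 and -2.72 without and -8.83 and -8.10 with TGFβ1 (adjusted p = 0.00595). In both genes the stimulated replicates lay far below the unstimulated ones, with no overlap. The largest rises were at LIF, TREX1, JAG2, RIPK3 and UBTD1. At LIF, the gene of a cytokine, the ratio was -7.66 and -7.27 without and -2.52 and -2.36 with TGFβ1, a difference of 5.02 ± 0.19 (adjusted p = 0.00275). At JAG2, a Notch ligand gene, it was -7.95 and -6.52 without and -2.70 and -2.60 with TGFβ1 (adjusted p = 0.0202). The direction of all 10 was the same after loess and after normexp, but at RIPK3 the difference shrank from 4.57 to 0.39 with normexp and the conditions overlapped.

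The 2 channels were also tested on their own, as log2 signal relative to the 75th percentile of the array. Over all probes this scale moved the median upward after TGFβ1, by 0.24 for the mock and 0.30 for the SMAD3 signal. The mock signal was called higher at 1249 mock-enriched probes (19.3%), compared with 8.83% of all and 15.2% of measured probes, and lower at 1378 (21.3%), compared with 8.16% and 12.0%. The SMAD3 signal was called higher at 401 (6.20%), compared with 5.27% and 8.95%, and lower at 880 (13.6%), compared with 5.33% and 8.39%. Relative to the median of all probes, the median difference of the mock-enriched probes was -0.34 for the mock and -0.52 for the SMAD3 signal. Without TGFβ1-stimulated replicate 1 the mock signal was called at 1695 in place of 2627 probes. Without either unstimulated replicate no SMAD3 signal was called by limma, with 2314 and 2280 mock-enriched probes at an unadjusted p under 0.05.

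The ratio is built from both signals, so its calls go with those of the channels. Of the 860 probes with a higher ratio, 598 (69.5%, against 45.9% among measured probes with a higher ratio) had a lower and 11 a higher mock signal, while 43 had a higher and 179 a lower SMAD3 signal. Of the 1524 with a lower ratio, 781 (51.2%, against 42.6%) had a higher and 37 a lower mock signal, while 120 had a higher and 228 a lower SMAD3 signal. Of the 952 probes with both channels called, 937 had the same direction (98.4%, against 81.3% among measured probes) and 15 opposite directions. The selection on the ratio bears on these shares too, since channels that move apart carry a ratio across the limit. RIPK3, a kinase gene of necroptosis whose probe lies 44 bp downstream of the start, differed in the SMAD3 channel instead. Its mock signal did not pass the test (limma adjusted p = 0.777) and was 3.75, 3.59, 4.21 and 3.63, while its SMAD3 signal went from -2.16 and -3.23 to 2.56 and 2.09 (difference 5.02 ± 0.53 SE, adjusted p = 0.000314). With normexp its ratio was -0.45 and -3.12 without and -1.47 and -1.32 with TGFβ1.

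The largest changes of the mock signal were of several log2 units. At PTPRH, a receptor tyrosine phosphatase gene, the mock signal was -1.48 and -1.17 without and 7.94 and 7.65 with TGFβ1, a difference of 9.12 ± 0.37 (adjusted p = 0.000139). At GAA, the gene of the lysosomal acid glucosidase, it went from -1.13 and -1.53 to 7.64 and 7.12. RBPMS2, KRT80 and HSD11B2 followed with differences of 8.55, 8.44 and 8.27. In the other direction, APBA2 went from 7.58 and 7.18 to -0.01 and -0.52, a difference of -7.65 ± 0.40 (adjusted p = 0.000151). ZNF566, UBTD1, PDZRN3 and ADRBK1 (GRK2) followed, with differences from -7.56 to -7.49. At each of these the 2 replicates of a condition lay within 1 log2 unit of each other in the mock channel, and the conditions did not overlap. The SMAD3 signal moved the same way at each of them, by less than the mock. Its difference was 5.41 at PTPRH and -3.36 at APBA2. It passed the test at all but KRT80 and HSD11B2 (limma adjusted p = 0.0849 and 0.0522).

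Genes of the TGFβ pathway and of the lung epithelium were looked up from lists of 76 symbols. They had 45 mock-enriched of 930 measured probes (4.84%) in 29 genes. The ratio was called higher after TGFβ1 at 6 of the 45 and lower at 9, which are few probes at shares near those of all mock-enriched probes (13.3% and 23.6%) and below those of measured probes (18.9% and 25.4%). The mock signal was higher at 6 and lower at 12, where 19.3% and 21.3% of all mock-enriched probes were called. The median difference of the ratio over the 45 was -0.10. Rises and falls in the paragraphs that follow are of the ratio and do not by themselves say which signal moved. The 15 called ratios had the same direction after loess, and 13 had it after normexp, with BMPR1B and the FOSB probe 314 bp upstream as the exceptions.

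Among the SMAD genes 4 of 80 measured probes were mock-enriched (5%), 3 at SMAD2, the receptor-regulated partner of SMAD3, and 1 at SMAD6, an inhibitory SMAD. The SMAD2 probe 2128 bp upstream had -4.40 and -4.05 without and -2.24 and -2.28 with TGFβ1, a rise of 1.97 ± 0.17 (limma adjusted p = 0.00927). Both signals of this probe were called lower, with differences of -4.03 for the mock and -1.87 for the SMAD3 signal. The SMAD6 probe 3666 bp upstream had -3.04 and -2.67 without and -6.08 and -5.23 with TGFβ1, a difference of -2.80 ± 0.38 (adjusted p = 0.0238). Its SMAD3 signal was called lower (difference -2.51), while its mock signal differed by 0.09 and did not pass. The other SMAD2 probes did not pass the test, with differences of 0.77 and -0.02.

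Ligands, latent binding proteins and receptors had 7 of 184 (3.80%). TGFBR1, the type I TGFβ receptor, had -2.09 and -2.78 without and -4.22 and -4.45 with TGFβ1 at 686 bp upstream, and passed as lower (adjusted p = 0.034). The TGFB3 promoter had -2.25 and -2.16 without and -2.99 and -2.92 with TGFβ1, and passed as lower (adjusted p = 0.0249). BMPR1B had -5.48 and -5.33 without and -4.49 and -4.71 with TGFβ1 and passed as higher by 0.80 ± 0.14 (adjusted p = 0.042), while after normexp its difference was -0.04. Both promoters are among the sequences above. ACVR1B, BMPR1A and the 2 probes at LTBP2 did not pass for the ratio. Corepressors and ubiquitin ligases had 3 of 84 (3.57%), and of these TGIF2, a homeobox corepressor, rose from -3.89 and -3.96 to -2.26 and -2.56 (adjusted p = 0.0134). Both signals of TGIF2 were called lower, with differences of -6.08 for the mock and -4.37 for the SMAD3 signal. SKIL and NEDD4L did not pass for the ratio.

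Of the targets that the study itself names, chosen on these samples, 7 of 174 measured probes were mock-enriched (4.02%). COL7A1, the type VII collagen gene of anchoring fibrils, had 4. Its probe 30386 bp downstream of the start had -3.53 and -3.23 without and -5.38 and -5.68 with TGFβ1 and passed as lower (adjusted p = 0.0101), and the other 3 had differences of -0.07, 0.75 and 0.32 that did not pass. TAGLN, an actin-binding protein gene, had -2.28, -2.03, -2.40 and -2.11 at 1617 bp downstream. FOXA2, a forkhead factor of the lung epithelium, had -2.64, -2.55, -2.98 and -2.20 at 994 bp downstream. Both had overlapping conditions. SMAD6, described above, is also among these targets.

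AP-1 and SP1 genes had 8 of 162 (4.94%), with 1 higher and 2 lower. AP-1 is the FOS and JUN dimer that acts with SMAD3 at many promoters. FOSB had 3, which differed in direction. The probe 423 bp upstream rose from -5.73 and -5.39 to -2.91 and -2.15 (adjusted p = 0.0162), while the one 314 bp upstream went from -4.50 and -4.45 to -6.07 and -5.80 (adjusted p = 0.0126), with a normexp difference of 0.94. The FOSB probe 2222 bp downstream had -2.47, -2.29, -2.47 and -2.47 and did not pass (adjusted p = 0.72). FOSL1, another FOS family member, went from -2.23 and -2.21 to -6.35 and -5.63 at 8529 bp downstream, in a stretch it shares with other genes (adjusted p = 0.00821). At JUNB, FOSL2 and ATF3 no difference of the ratio passed, while the mock signal passed as lower at both ATF3 probes (limma adjusted p = 0.0122 and 0.00213). At the ATF3 probe 5264 bp downstream the SMAD3 signal passed as lower too, by a difference of -3.75 (limma adjusted p = 0.003).

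Genes of the epithelial-mesenchymal transition had 3 of 130 (2.31%), at TWIST1, SNAI1 and SNAI2, and none passed for the ratio. At SNAI2 unstimulated replicate 1 stood apart, with -6.02 against -2.95 to -3.48 on the other arrays. Lung epithelial genes had 15 of 207 (7.25%) in 8 genes, with 2 higher and 3 lower. FOXJ1, the regulator of motile cilia, rose from -6.39 and -5.91 to -3.75 and -3.76 at 189 bp upstream (adjusted p = 0.00985). Its other probe, 1078 bp upstream, had -3.64 and -3.20 without and -6.47 and -4.75 with TGFβ1, lower in both stimulated replicates but not past the test (adjusted p = 0.154). FOXA1 rose from -4.03 and -3.67 to -2.42 and -2.51 at 2644 bp downstream (adjusted p = 0.02), and its other probe did not pass. SFTPC, the surfactant protein C gene, had 3, and the one 2375 bp downstream fell from -4.48 and -4.34 to -6.51 and -6.46 (adjusted p = 0.00424). AQP5, a water channel gene, and SCGB1A1, the club cell secretoglobin gene, also passed as lower at 1 probe each. The other probes of SFTPC and AQP5 did not pass for the ratio. SFTPB and GATA6 had 2 each that did not pass.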

How the data were processed

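DNA from SMAD3 IP and mock IP, ligated to linkers and amplified per the labels, was measured in A549 cells on 8 dual-colour Agilent promoter arrays. The authors deposited intensity values per spot made with Agilent Feature Extraction 9.5.1.1, which had subtracted background by negative controls with spatial detrending, detrended multiplicatively, scaled each dye linearly and put surrogates in place of dim signals. No scaling between arrays had been applied. A table of log2 ratios deposited by the authors was also read and equalled those of the intensities within 3.13e-06. The annotation names no genome build, so probe positions are given only as chromosome and distance to the start.

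Control spots were left out, both slides of a replicate were joined, and each array was centred on its median, between 0.237 and 0.725 before centring. Limma 3.58.1 (lmFit, eBayes) in R 4.3.3 compared the conditions over all probes, without a block. For the ratio, same-numbered deviations from the condition mean correlated with r of 0.02 to 0.05. The 2 channels were not checked for pairing in this way. With a replicate block, mock-enriched probes called went from 2627 to 2764 for the mock and from 1281 to 1727 for the SMAD3 signal. With 2 against 2 arrays an exact permutation test cannot go below p = 0.333, so that no single value was tested that way. Tables were made with Python 3.11.15 and pandas 2.3.3. Old gene symbols were matched through RefSeq accessions, which named 6116 of the 6466 probes.

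The labels give 2 biological replicates per condition, while the text of the study speaks of more array replicates, which are not analysed here. The probes and the gene lists were chosen with earlier results of these data known. Named are the 10 lowest means, the 10 genes with most mock-enriched probes, the 5 largest called changes in each direction of the ratio and of the mock signal, every listed gene and the probes next to the limit. Of these, 1 probe among the lowest means and 2 just outside the limit are not reported here.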

Additional observations from a re-analysis of the deposited data

How the results depend on the processing

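The number of mock-enriched probes was within 1.5 times 6466 with the deposited log2 ratios and without outlier spots or saturated probes. The same held without the requirement on signal and without each replicate in turn (7145 to 8266). Those settings only loosen the rule, so that all 6466 remain by construction. The number moved to 394 with normexp (offset 50) and 2808 with loess. Ratios called higher numbered 178 with normexp and 221 to 312 without 1 replicate, against 860, and ratios called lower numbered 273 and 251 to 1052, against 1524. Changed mock signals numbered 4100 and changed SMAD3 signals 2280 when only probes well above background entered the fit, against 2627 and 1281, and 1695 to 2459 and 0 to 871 without 1 replicate. The fit with a replicate block called 582 higher and 1107 lower ratios, 2764 mock and 1727 SMAD3 signals. A lone array left in a condition was assumed to vary like the other condition. The median of the neighbours, -0.57 within 500 bp, was -0.79 within 250 bp, -0.42 within 1000 bp, -0.79 over neighbours well above background and -0.0199 with normexp. The difference of single probes could turn, as 2 of the 15 called ratios of listed genes did with normexp (BMPR1B from 0.80 to -0.04, FOSB at 314 bp upstream from -1.46 to 0.94), and without unstimulated replicate 2 the excess of lower over higher ratios was gone (251 each). The other settings (loess, the deposited ratios, separate fits per slide, other scalings of a channel) left their counts within 1.5 times. The GC content of the probes was not run, as no file used here holds their sequences. The cause of these shifts was not tested. Signal over background and 2 arrays per condition limit all values.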
